A study of Mus musculus with 8 samples.

Results

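The genes described here encode parts of the sperm flagellum: the *Cfap* genes (cilia and flagella associated proteins), the *Rsph* genes (radial spoke head components and their relatives), and *Hydin*, *Spag6*, *Spag6l*, *Spag16*, *Spag17*, *Spef1* and *Spef2* of the central pair. They were taken by name from the protein-coding genes of the deposited table. This gave 46 genes, 31 *Cfap*, 8 *Rsph* and 7 named one by one, of 54532 genes in all, of which 22046 are protein-coding. RNA was measured in whole testes of synchronized C57BL/6J male mice at RA11.5, that is 11.5 days after the retinoic acid (RA) injection given on postnatal day 9, a time the study describes as mid-late pachynema. The 4 control libraries came from *Sync-Spdya* fl/fl mice, whose *Spdya* alleles carry loxP sites around exon 2. The 4 *Sync-Spdya* cKO libraries came from *Spdya* fl/fl mice that also carried *Ddx4*-CreERT2, a tamoxifen-dependent Cre knocked into the germ cell gene *Ddx4*, so that *Spdya* is deleted in germ cells and not in the somatic cells of the testis. Mice of both groups had received the inhibitor of RA synthesis as neonates, the RA injection, and tamoxifen at RA7.5 and RA8.5 by the sample labels. SpdyA activates a cyclin-dependent kinase at telomeres of meiotic chromosomes. The paper states that its controls were littermates of the cKO mice. Nothing in the labels says that same-numbered mice were littermates, and p-values measure the spread between these libraries.

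The axoneme, the motor of the flagellum, is a ring of doublet microtubules around a central pair of single microtubules. Radial spokes reach from each doublet to projections of the central pair and pass mechanical signals to the dynein arms, while other proteins line the inside of the doublets, and a tether holds an inner dynein arm in place. Sperm build this structure after meiosis, but transcripts of many axonemal genes already accumulate in pachytene spermatocytes. Regulatory factor X (RFX) proteins, among them *Rfx2* in the male germ line, bind X-box sequences near the start of ciliary genes.

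Promoters of these genes are shown for the letters that RFX proteins are known to bind. In the 300 bases around the start that RefSeq gives on GRCm38.p6 for 36 of the 46 genes, the RFX half-site GTTGCC, which reads GGCAAC from the other strand, was present in 16 genes (44.4%). Of all 27025 genes with such windows 14.1% held it, and of the 9601 genes with windows that were also tested here 15.5% did. The MYB core CAACTG, whose complement reads CAGTTG, the recognition sequence of a family that includes the pachytene regulator *Mybl1*, was present in 7 of the 36 genes (19.4%), against 15.4% of all genes and 12.4% of those tested. The motifs can share bases, as they do in *Cfap161*. A match is a description of letters and not a measured binding site. *Cfap157*, *Cfap299*, *Cfap53*, *Cfap54*, *Cfap65*, *Cfap73*, *Cfap97*, *Rsph1*, *Rsph10b* and *Rsph4a* had no entry. The stretches below lie before the gene start of RefSeq and run 5′ to 3′ on the strand of the gene, with the half-site in capitals. They belong to *Hydin* (chr8:110266917-110266976, + strand), *Spag16* (chr1:69826840-69826899, + strand), *Cfap44* (chr16:44394736-44394795, + strand), *Cfap74* (chr4:155409047-155409106, + strand), *Cfap46* (chr7:139683818-139683877, - strand), *Cfap58* (chr19:47937626-47937685, + strand), *Cfap161* (chr7:83794881-83794940, - strand) and *Cfap20* (chr8:95434931-95434990, - strand).
Hydin: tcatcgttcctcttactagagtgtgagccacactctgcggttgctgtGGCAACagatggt
Spag16: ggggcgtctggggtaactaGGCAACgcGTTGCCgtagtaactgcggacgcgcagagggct
Cfap44: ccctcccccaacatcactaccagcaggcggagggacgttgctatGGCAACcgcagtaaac
Cfap74: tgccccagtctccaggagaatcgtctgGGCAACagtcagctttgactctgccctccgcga
Cfap46: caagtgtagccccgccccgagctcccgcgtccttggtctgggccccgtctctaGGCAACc
Cfap58: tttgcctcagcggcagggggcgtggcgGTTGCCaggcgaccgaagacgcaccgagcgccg
Cfap161: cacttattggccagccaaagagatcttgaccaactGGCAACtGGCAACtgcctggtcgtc
Cfap20: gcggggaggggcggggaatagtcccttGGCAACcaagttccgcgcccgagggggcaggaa
*Spag16* and *Cfap161* each hold 2 half-sites in their stretch. The *Spag16* copies lie on opposite strands, and the *Cfap161* copies repeat on the same strand. The 8 stretches come from genes with very different results below, from *Cfap58*, which had the largest relative difference between the groups, to *Cfap20*, which had none that could be measured.

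The libraries held 13978342 to 19583091 fragments on genes, recovered as whole fragments from the deposited FPKM values (fragments per kilobase of gene and scaled library size). Control 1 stood apart, with 0.464% of its fragments on mitochondrial genes against 2.20% to 3.74% in the other 7 libraries, so results that rest on it are also given without it. *Spdya* itself was listed at 19.7 to 23.8 FPKM in the controls and 17.7 to 30.5 FPKM in the cKO libraries (log2 fold change 0.15, SE 0.16, limma adjusted p = 0.787). Exon 2 alone is deleted, and the level over the whole gene gave no check of the labels. The Sertoli markers *Sox9*, *Wt1* and *Cldn11* and the pachytene markers *Hspa2*, *Ldhc* and *Piwil1* were above 20 FPKM in every library, as the label testis requires. They were picked from longer lists in which other genes were lower. Among these were *Rhox5* of the Sertoli list, at 2.02 to 11.1 FPKM, and *Hist1h1t* of the pachytene list, at 0.210 to 0.893 FPKM over all libraries.

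Levels differed by more than 3 orders of magnitude between the 46 genes. Over all 8 libraries 19 genes had a mean above 10 FPKM, 18 a mean between 1 and 10, and 9 a mean of 1 or less. *Rsph1* of the spoke head stood first, at 382 ± 98.3 FPKM in the controls and 346 ± 52.6 in the cKO libraries (SD, n = 4 each), and ranked 31st among all protein-coding genes. The next were *Cfap65* of the central pair (57.9 ± 8.39 and 49.1 ± 6.66 FPKM), *Cfap36* (57.7 ± 2.01 and 44.4 ± 9.46 FPKM) and the spoke gene *Cfap206* (42.8 ± 10.03 and 31.5 ± 5.55 FPKM, SD, n = 4 for each value). These 3 neighbours in the order overlapped in their control values, and *Rsph1* overlapped with none of them. *Cfap300* and *Cfap298*, which act in the cytoplasmic assembly of dynein arms, and *Cfap97* followed, with control means of 37.6, 24.8 and 28.5 FPKM. At the low end *Cfap73*, *Cfap97d2*, *Cfap100* and *Cfap97d1* were at 0.50 FPKM or less by group means, with 0 to 41 fragments per library, and the spoke head gene *Rsph4a* was close to absent. The plot of levels by library shows the whole range.

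**Figure D1:**
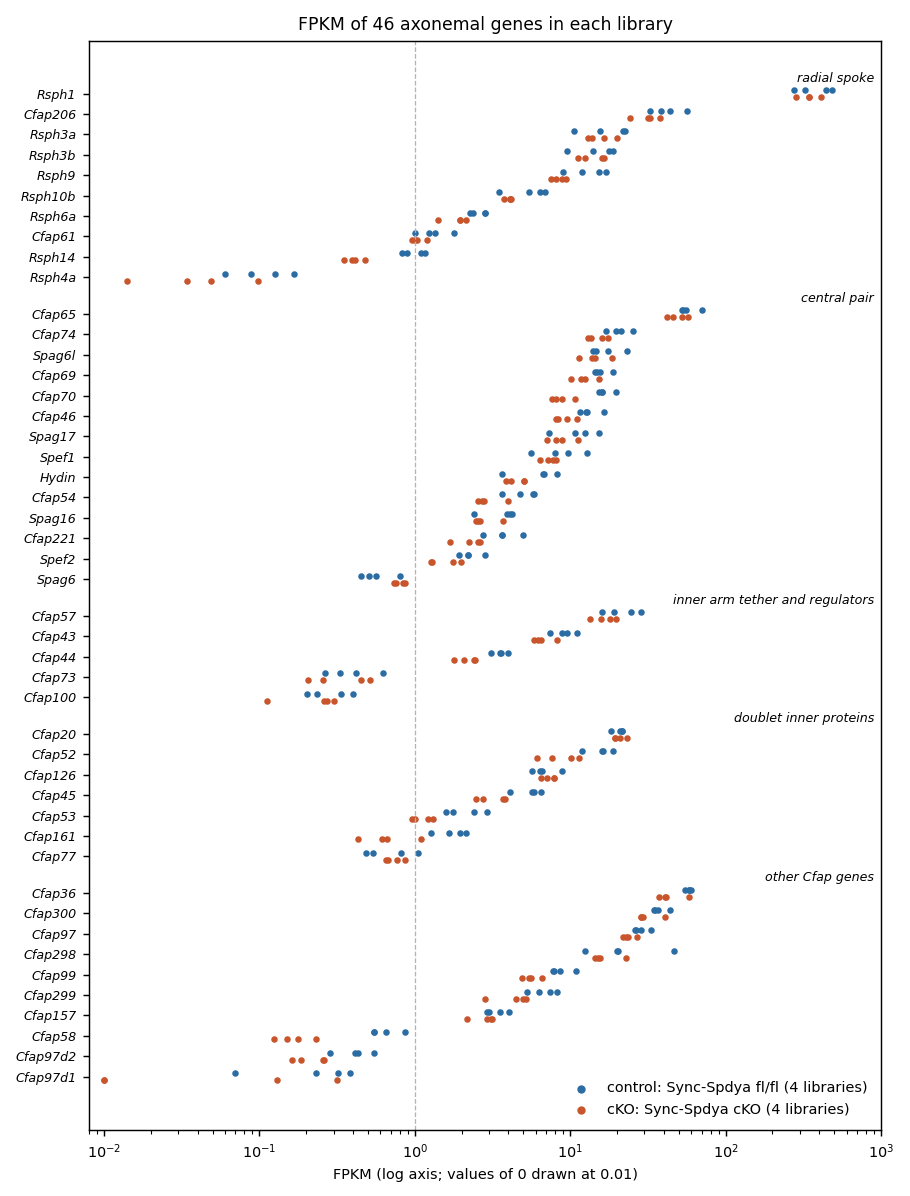
FPKM (x axis, log scale) of the 46 genes (y axis, grouped by place in the axoneme), 1 point per library, controls in blue and cKO libraries in orange, with the broken line at 1 FPKM. Orange points lie to the left of the blue ones in most rows, with full separation in *Cfap70*, *Cfap44* and *Cfap58* and mixing in *Rsph1*, *Cfap20* and *Cfap126*.

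Most of these genes had lower values in the *Sync-Spdya* cKO testes, by small amounts, and none passed the test used here. Of the 46, 36 were testable with a mean over 1 FPKM in each group, and 34 of these had a log2 fold change (cKO minus control, of FPKM + 0.1) below 0, against 48.0% of the 12141 genes tested. The median log2 fold change of the 36 was -0.40, and that of all genes tested 0.01. With limma and a Benjamini-Hochberg adjusted p under 0.05 together with an absolute log2 fold change over 1, 0 of the 36 were called, against 0.0165% of all genes tested (2 genes). The paper applied the same thresholds with another method, DESeq2, and reported more autosomal genes as differentially expressed than these 2. The calls given here are therefore those of limma on FPKM alone. At an unadjusted p under 0.05, 19 of the 36 were lower and 0 higher, against 5.00% lower and 5.89% higher among all genes tested. In 10 of the 36 all 4 cKO values lay below all 4 control values, against 2.59% of all genes, and in 0 they lay above, against 3.64%. The filter asks for expression in both groups, so genes nearly lost from 1 group are not among the 36 and are described further on. In whole testis, fewer cells of a type and less RNA per cell cannot be told apart.

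These counts moved with single libraries and with the weights given to them. Without control 1, 24 of the 36 genes were lower at an unadjusted p under 0.05 (5.90% of all genes), and 18 did not overlap between the groups (5.00% of all genes). Without cKO 1, 20 did not overlap (7.81% of all genes), and with values rescaled to TPM (length-corrected shares of one total, the same in every library) 6 did not (1.52% of all genes). Leaving out a library makes separation easier by construction. Limma array weights, which gave control 1 a weight of 0.161 and cKO 3 one of 4.45, placed 16 of the 36 genes at an adjusted p under 0.05, all lower in the cKO libraries, against 2.34% of all genes tested, and called 2, *Cfap70* and *Cfap52*, against 0.469%. At an unadjusted p under 0.05 the weights placed 29 of the 36 lower, against 9.93% of all genes. Other alternatives lowered this count. It was 13 with TPM (2.97% of all genes) and 13 without cKO 3 (2.86%). Without cKO 4 and without control 3 it was 14 each (2.67% and 3.15% of all genes). The median log2 fold change lay between -0.57 and -0.29 in every alternative.

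**Figure D2:**
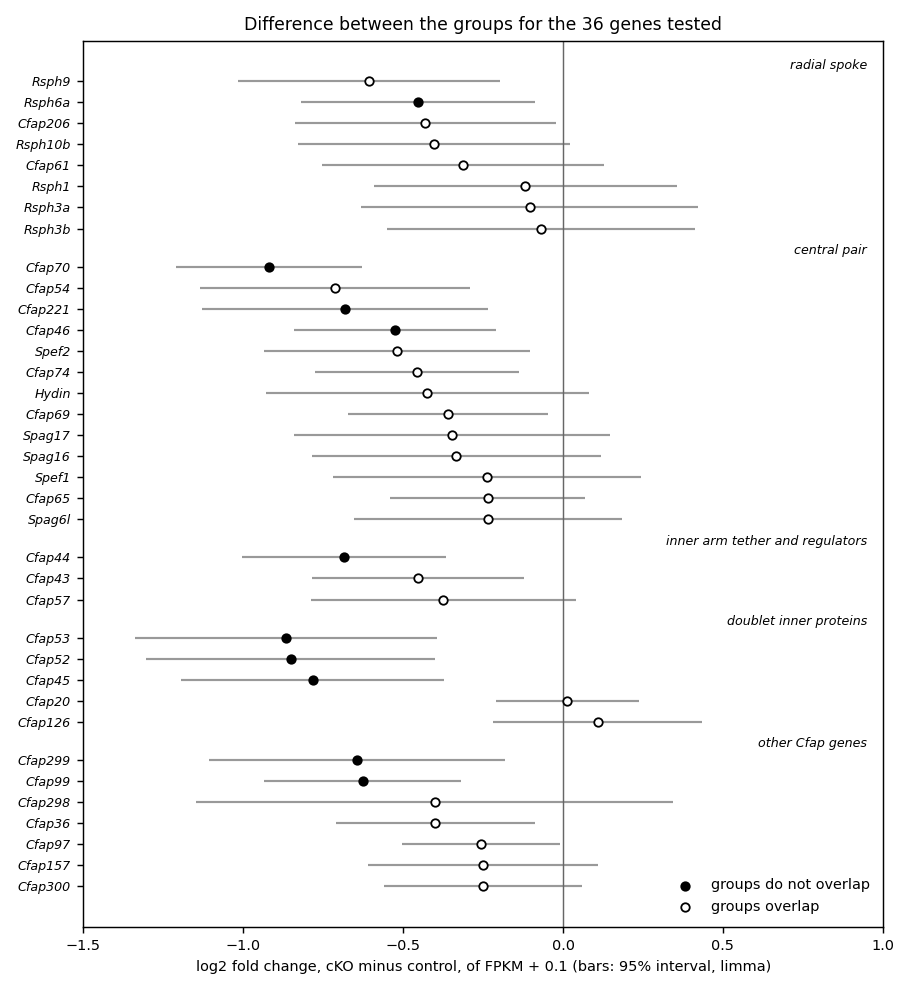
Log2 fold change (x axis, cKO minus control, of FPKM + 0.1) with its 95% interval from limma for the 36 genes tested, grouped by place in the axoneme. The interval lies wholly below 0 for 19 genes and holds 0 for 17, and filled points mark the 10 genes whose groups do not overlap.

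Among the radial spoke genes, 3 of the 8 tested were lower at an unadjusted p under 0.05 (5.00% of all genes tested) and the median log2 fold change was -0.36. *Rsph9* of the spoke head was at 16.9, 11.9, 15.3 and 8.95 FPKM in the controls and 8.15, 9.34, 8.81 and 7.46 FPKM in the cKO libraries (log2 fold change -0.61, SE 0.18, adjusted p = 0.287). Control 4 lay among the cKO values, and without control 1 the difference was -0.48. *Rsph6a*, the testis counterpart of the spoke head gene *Rsph4a*, was at 2.35, 2.83, 2.85 and 2.25 FPKM in the controls and 2.13, 1.96, 1.40 and 1.96 FPKM in the cKO libraries (log2 fold change -0.45, SE 0.16, adjusted p = 0.368). Its groups did not overlap, with 59 to 128 fragments per library. *Rsph10b*, a further head component, was at 3.49, 6.35, 6.87 and 5.39 FPKM in the controls and within 3.72 to 4.17 FPKM in the cKO libraries (log2 fold change -0.40, SE 0.19, adjusted p = 0.490). Control 1 was below all 4 cKO libraries, the other 3 controls were above all of them, and the log2 fold change without control 1 was -0.60.

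The most abundant spoke transcripts did not separate the groups. *Rsph1* was at 275, 445, 484 and 325 FPKM in the controls and 413, 346, 342 and 284 FPKM in the cKO libraries (log2 fold change -0.12, 95% interval -0.59 to 0.36, adjusted p = 0.878). Its lowest value was in control 1, and the log2 fold change was -0.26 without that library and 0.01 without control 3. The stalk genes *Rsph3a* and *Rsph3b* had log2 fold changes of -0.10 (interval -0.63 to 0.42) and -0.07 (interval -0.55 to 0.41). Both had their lowest value in control 1, at 10.6 and 9.53 FPKM, and had log2 fold changes of -0.32 and -0.27 without that library. Both signs changed without control 2 or control 3, and that of *Rsph3b* also without cKO 4. *Cfap206*, at the base of a spoke, was at 32.6 to 56.2 FPKM in the controls and 24.2 to 37.7 FPKM in the cKO libraries (log2 fold change -0.43, SE 0.18, adjusted p = 0.445). *Cfap61* of the calmodulin and spoke-associated complex was just inside the filter, at control values of 1.00 to 1.80 FPKM, and had a log2 fold change of -0.31 (SE 0.20, adjusted p = 0.625), which was -0.17 without control 3.

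All 13 central pair genes tested had a log2 fold change below 0 (48.0% of all genes tested), with a median of -0.42, and 7 of them were lower at an unadjusted p under 0.05 (5.00% of all genes). *Cfap70* (ENSMUSG00000039543, chromosome 14, 20394193 to 20452226 on GRCm38), a central pair protein with tetratricopeptide repeats, had the smallest p of the 36 genes and ranked 4th among all 12141. It was at 16.0, 16.0, 19.6 and 15.4 FPKM in the controls and 10.8, 8.80, 7.62 and 8.13 FPKM in the cKO libraries. The highest cKO value was below the lowest control value, and the log2 fold change of -0.92 (SE 0.13, adjusted p = 0.108) lay between -1.02 and -0.84 with each library left out in turn. With array weights its adjusted p was 0.00558, and with voom on recovered fragments 0.0823. The central pair genes *Cfap54*, *Cfap46* and *Cfap221* had log2 fold changes of -0.71, -0.53 and -0.68 (SE 0.19, 0.14 and 0.20, adjusted p = 0.229, 0.229 and 0.276), and were named after their values were seen. *Cfap74*, also of the central pair, had a smaller one of -0.46 and overlapped between the groups. *Cfap46* and *Cfap221* did not overlap between the groups, and in *Cfap54* control 1 at 3.63 FPKM lay below cKO 1 at 3.99 FPKM.

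With all libraries, the central pair genes taken one by one showed smaller differences than *Cfap70*, *Cfap54* and *Cfap221*. *Hydin*, a very large protein of a central pair projection, was at 3.61, 6.76, 8.15 and 6.71 FPKM in the controls and 5.01, 5.06, 3.86 and 4.13 FPKM in the cKO libraries (log2 fold change -0.42, SE 0.23, adjusted p = 0.550). Control 1 was the lowest of the 8 libraries and the other 3 controls were the highest, and without control 1 the log2 fold change was -0.67 (adjusted p = 0.0704). *Spag16* followed the same order, with control 1 at 2.39 FPKM, the other controls at 3.89 to 4.23 FPKM and the cKO libraries at 2.48 to 3.69 FPKM (log2 fold change -0.33, SE 0.20, and -0.52 without control 1). *Spag17*, its partner in the central apparatus, was at 7.29, 10.7, 15.4 and 12.5 FPKM in the controls and 11.3, 8.79, 8.09 and 7.04 FPKM in the cKO libraries (log2 fold change -0.35, SE 0.22, -0.55 without control 1 and -0.19 without control 3). *Spef2*, which is needed for sperm tail formation, was at 1.92 to 2.81 FPKM in the controls and 1.27 to 1.97 FPKM in the cKO libraries (log2 fold change -0.52, SE 0.19, adjusted p = 0.364).

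*Spef1*, a microtubule-binding protein of the central pair, went the other way with respect to control 1. That library had its highest value, 12.7 FPKM, while the other controls were at 8.01, 9.74 and 5.62 FPKM and the cKO libraries at 6.35 to 8.13 FPKM (log2 fold change -0.24, SE 0.22, -0.05 without control 1 and -0.44 without control 4). *Spag6l* was at 13.9, 17.4, 23.0 and 14.7 FPKM in the controls and 18.7, 14.5, 13.8 and 11.3 FPKM in the cKO libraries (log2 fold change -0.23, SE 0.19, adjusted p = 0.711). The groups overlapped, and without control 3 the log2 fold change was -0.087. *Cfap65* and *Cfap74* had log2 fold changes of -0.24 and -0.46 (SE 0.14 for each, adjusted p = 0.588 and 0.290), and without control 3 that of *Cfap65* was -0.14.

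Of the tether and inner arm regulators 3 were tested, and 2 of these were lower at an unadjusted p under 0.05 (5.00% of all genes tested). *Cfap44* (ENSMUSG00000071550, chromosome 16, 44394796 to 44482428), which forms the tether of an inner dynein arm together with *Cfap43*, was at 3.58, 3.08, 3.99 and 3.53 FPKM in the controls and 2.44, 2.41, 1.79 and 2.07 FPKM in the cKO libraries. Its groups did not overlap, and the log2 fold change was -0.69 (SE 0.14, adjusted p = 0.150). *Cfap43* had a log2 fold change of -0.45 (SE 0.15, adjusted p = 0.326), with cKO 1 at 8.21 FPKM above control 1 at 7.38 FPKM. *Cfap57*, a regulator of inner arm dyneins, had one of -0.37 (SE 0.19, adjusted p = 0.522), which was -0.24 without control 3.

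The 5 tested genes for proteins inside or between the doublets divided most widely. *Cfap53*, *Cfap52* and *Cfap45*, all microtubule inner proteins, had values that did not overlap between the groups. *Cfap53* was at 1.58, 1.76, 2.90 and 2.39 FPKM in the controls and 1.21, 1.30, 0.958 and 0.997 FPKM in the cKO libraries (log2 fold change -0.87, SE 0.21, adjusted p = 0.178). *Cfap52* was at 16.3, 16.0, 18.8 and 11.9 FPKM against 11.3, 10.2, 6.13 and 7.59 FPKM (log2 fold change -0.85, SE 0.20, adjusted p = 0.178). In both the lowest control stood close to the highest cKO library. *Cfap45* was at 5.71, 5.82, 6.49 and 4.09 FPKM against 3.82, 3.67, 2.74 and 2.48 FPKM (log2 fold change -0.78, SE 0.18, adjusted p = 0.178). Here too the lowest control, at 4.09 FPKM, stood close to the highest cKO library, at 3.82 FPKM.

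*Cfap20* and *Cfap126* were the 2 tested genes with a log2 fold change above 0. *Cfap20*, a protein of the inner junction of the doublet that is also present in cilia of other tissues, was at 18.3, 21.6, 21.4 and 20.8 FPKM in the controls and 23.2, 19.5, 20.9 and 19.3 FPKM in the cKO libraries. Its log2 fold change of 0.01 had a 95% interval of -0.21 to 0.24, the narrowest bounds of the group of inner proteins, and took the other sign without control 1, without cKO 1 and with array weights (-0.04, -0.04 and -0.06). *Cfap126*, also called Flattop, was at 5.64 to 8.91 FPKM in the controls and 6.44 to 7.91 FPKM in the cKO libraries (log2 fold change 0.11, interval -0.22 to 0.43, adjusted p = 0.839), and its log2 fold change was 0.24 without control 3 and 0.02 without control 4.

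Of the remaining *Cfap* genes 7 were tested and all 7 had a log2 fold change below 0 (48.0% of all genes tested). *Cfap99* was at 8.63, 7.77, 10.9 and 7.82 FPKM in the controls and 6.61, 4.93, 5.56 and 5.41 FPKM in the cKO libraries, without overlap (log2 fold change -0.63, SE 0.14, adjusted p = 0.153). *Cfap36* was at 54.9 to 59.6 FPKM in the controls, while cKO 1 reached 58.3 FPKM and the other 3 cKO libraries were at 37.3 to 41.3 FPKM (log2 fold change -0.40, SE 0.14, adjusted p = 0.348). *Cfap300* had the same order, with cKO 1 at 40.7 FPKM and the other cKO libraries at 28.5 to 29.4 FPKM, against controls at 34.8 to 44.0 FPKM (log2 fold change -0.25, SE 0.14, adjusted p = 0.568). *Cfap97* had a log2 fold change of -0.26 (SE 0.11, adjusted p = 0.447). *Cfap298* rested on 1 library: control 1 was at 46.4 FPKM, the other controls at 12.5 to 20.3 FPKM and the cKO libraries at 14.5 to 22.7 FPKM, so that the log2 fold change of -0.40 (SE 0.33) became -0.05 without control 1 and -0.67 without control 4. In GENCODE vM21, 44.2% of the exonic bases of *Cfap298* overlap *Gm49727* on the other strand, and whether the counting used strand is not given in the sources used here.

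The 10 genes below the filter included the largest relative differences. They were examined in a fit over the 15937 protein-coding genes whose mean over all libraries exceeded 0.1 FPKM, in which 23 of 45 tested genes of this group were lower at an unadjusted p under 0.05 against 4.86% of all genes and 0 were higher against 6.23%. In this fit the cKO values were below the control values without overlap for 14 of the 45 against 2.55%, and above for 0 against 3.78%. Of the 10, *Rsph4a* alone was under this bound as well. *Cfap58* (ENSMUSG00000046585, chromosome 19, 47937712 to 48035379), needed to build the sperm flagellum, was at 0.867, 0.544, 0.650 and 0.547 FPKM in the controls and 0.231, 0.150, 0.124 and 0.176 FPKM in the cKO libraries. The cKO mean was 26.1% of the control mean, from 135 fragments in the controls together and 40 in the cKO libraries (log2 fold change -1.47, SE 0.23, adjusted p = 0.0933). With array weights in this fit it was past an adjusted p of 0.05, with a log2 fold change of -1.48. *Rsph14*, a radial spoke gene, was at 0.887, 1.10, 1.17 and 0.831 FPKM against 0.479, 0.395, 0.413 and 0.352 FPKM (log2 fold change -1.10, SE 0.19, adjusted p = 0.108). With array weights in this fit *Rsph14* was past an adjusted p of 0.05 as well, with a log2 fold change of -1.20.

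*Cfap161*, another microtubule inner protein, was at 1.65, 2.15, 1.95 and 1.26 FPKM in the controls and 0.615, 1.10, 0.428 and 0.665 FPKM in the cKO libraries (log2 fold change -1.25, SE 0.26, adjusted p = 0.147). *Cfap161* missed the filter through its cKO mean of 0.702 FPKM alone, since its control mean was 1.75 FPKM. *Cfap97d2* had cKO values of 0.161 to 0.261 FPKM below control values of 0.286 to 0.547 FPKM (log2 fold change -0.71, SE 0.24, adjusted p = 0.328). The 95% exact Poisson intervals of the cKO library lay wholly below those of the control library in 14 of the 16 pairs for *Cfap58*, 14 for *Cfap161*, 11 for *Rsph14* and 4 for *Cfap97d2*. These intervals cover counting error only. *Cfap58*, *Cfap161* and *Cfap97d2* were named after their values were seen. *Cfap77*, *Cfap73*, *Cfap100* and *Cfap97d1* overlapped between the groups, with 0 to 45 fragments per library.

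**Figure D3:**
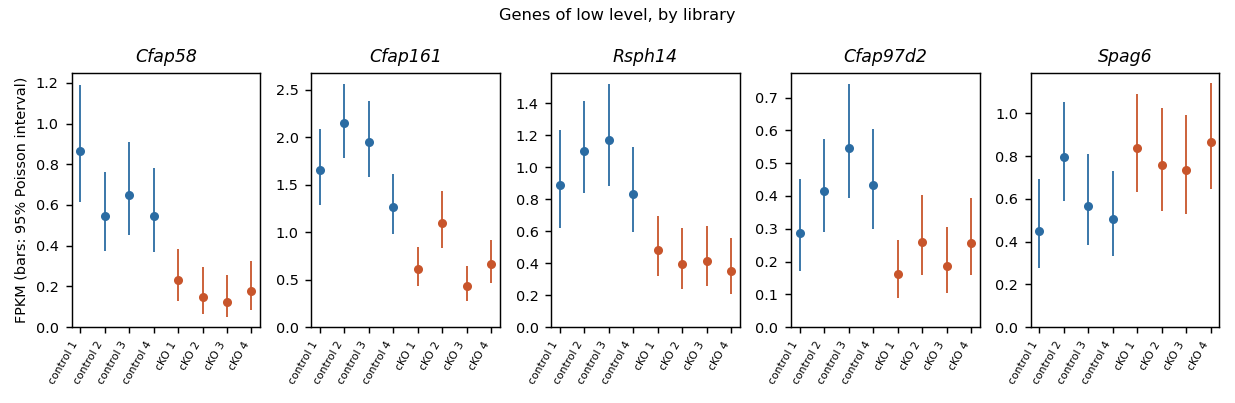
FPKM (y axis, from 0) of 5 genes of low level in each library (x axis), with 95% exact Poisson intervals as bars, controls in blue and cKO libraries in orange. All cKO points lie below all control points for *Cfap58*, *Cfap161*, *Rsph14* and *Cfap97d2*, and above 3 of the 4 control points for *Spag6*.

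Related copies allowed a comparison within each library. *Spag6l* is the copy used in the germ line and *Spag6* its relative, and per length *Spag6l* was 23.1 times as abundant over the 8 libraries. *Spag6* was at 0.450, 0.797, 0.566 and 0.504 FPKM in the controls and 0.836, 0.757, 0.734 and 0.868 FPKM in the cKO libraries (log2 fold change 0.43, SE 0.20, adjusted p = 0.467), so control 2 alone reached the cKO values. The log2 ratio of *Spag6l* to *Spag6* was 4.67 ± 0.34 in the controls and 4.01 ± 0.32 in the cKO libraries (SD, n = 4 each). This difference of -0.66 was not past the threshold (exact permutation test, two-sided, over 70 assignments, p = 0.0571, and 0.171 adjusted over 3 ratios). With 4 libraries in each group, 1 of the 3 ratios alone cannot reach an adjusted p under 0.05 in this test. The adjusted values therefore cannot decide whether a ratio differed. The copies share no stretch of 100 bases. *Rsph6a* was 27.9 times as abundant as *Rsph4a*. Their log2 ratio, 3.69 ± 0.48 in the controls and 3.74 ± 0.58 in the cKO libraries (SD, n = 4 each), did not pass either (p = 0.914 by the exact permutation test, adjusted p = 0.943), and with 1 to 10 fragments of *Rsph4a* per library it cannot show a small difference. *Rsph3a* and *Rsph3b*, both on chromosome 17, were close to equal, with log2 ratios of 0.21 ± 0.07 in the controls and 0.18 ± 0.30 in the cKO libraries (SD, n = 4 each; p = 0.943 by the exact permutation test, and 0.943 adjusted). They have much sequence in common, 48.2% and 52.8% of their stretches of 100 bases, so the authors' counting could have split or dropped fragments between them, and their values are uncertain.

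The libraries of each group differed among themselves along with these genes. The median over the 36 genes of log2(FPKM + 0.1), taken relative to the control mean of each gene, was -0.16, -0.02, 0.29 and -0.10 in controls 1 to 4 and -0.17, -0.37, -0.48 and -0.62 in cKO 1 to 4. Over all 12141 genes the same median stayed within -0.05 to 0.06. Control 3 had the highest value of all 8 libraries for 30 of the 36 genes. Control 1 was the lowest control for 18. Among the cKO libraries cKO 1 was the highest for 27 genes and cKO 4 the lowest for 24. The median of cKO 1 was just below that of control 1, the lowest control, and the other 3 cKO libraries were further below.

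**Figure D4:**
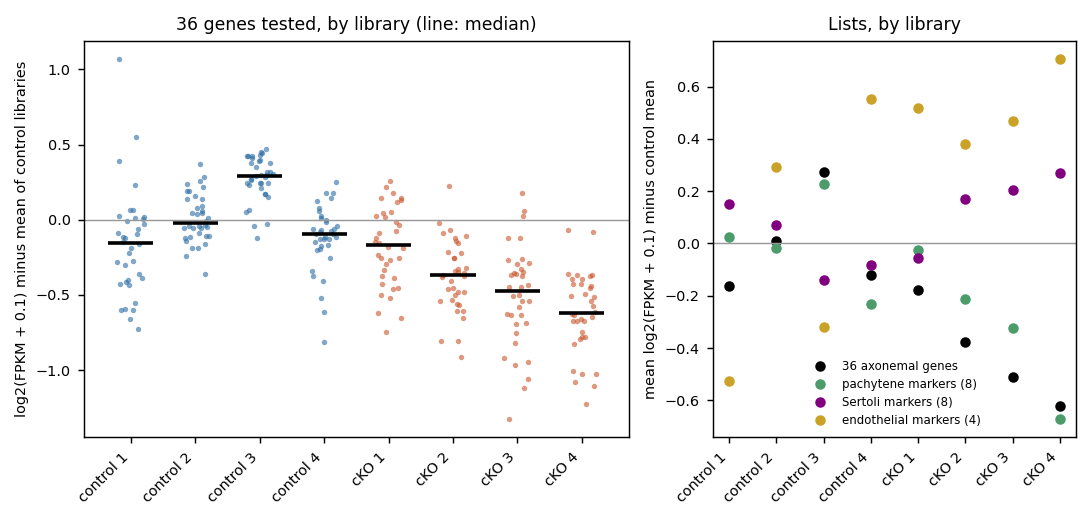
Left, log2(FPKM + 0.1) of each of the 36 genes minus its control mean (y axis) by library (x axis), with the median as a line. Right, the mean log2(FPKM + 0.1) of the same genes and of 3 marker lists minus the control mean, in which the genes and the pachytene markers are lowest in cKO 4 and the endothelial markers are highest there.

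Markers of other stages and cell types also differed between the libraries. The pachytene list (*Hspa2*, *Piwil1*, *Ldhc*, *Pgk2*, *Hist1h1t*, *Ccna1*, *Mybl1*, *Adam3*) had 6 of 8 genes tested, with a median log2 fold change of -0.35. Of the 6, 3 were lower at an unadjusted p under 0.05, a bound at which 5.00% of all genes tested were lower and 5.89% higher. The summed level of the list was 837 to 1362 FPKM in the controls and 647 to 1001 FPKM in the cKO libraries. Of the genes not tested, *Hist1h1t* was at 0.210 to 0.335 FPKM in the controls and 0.323 to 0.893 FPKM in the cKO libraries. *Ccna1* was at 1.30 to 1.95 FPKM in the controls and 0.834 to 1.26 FPKM in the cKO libraries. *Ldhc* and *Adam3* had log2 fold changes of -0.73 and -0.98 (adjusted p = 0.287 and 0.172), while *Pgk2* was at -0.02. Of the spermatid list, 3 of 8 genes were tested, none at an unadjusted p under 0.05, and the defining genes *Prm1*, *Prm2*, *Tnp1*, *Tnp2* and *Acrv1* were between 0 and 0.58 FPKM in every library. Its summed level was 9.51 to 14.6 FPKM in the controls and 9.49 to 11.4 FPKM in the cKO libraries. Of the list for leptotene to zygotene 8 of 8 were tested, with 1 lower, 1 higher (*Meiob*, log2 fold change 0.69, adjusted p = 0.280) and a summed level of 398 to 489 FPKM in the controls and 361 to 564 FPKM in the cKO libraries. Of the spermatogonial list 8 of 8 were tested and 1 was lower, *Stra8* (log2 fold change -1.46, adjusted p = 0.280), with a sum of 201 to 269 FPKM in the controls and 255 to 263 FPKM in the cKO libraries.

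Markers of several somatic cell types had higher values in the cKO libraries. All 10 tested genes of the Leydig, peritubular and macrophage lists and all 4 of the endothelial list had a log2 fold change above 0. Of these 14, 7 had an unadjusted p under 0.05, against 5.89% higher among all genes tested, with adjusted p of 0.286 or more. Genes of these lists that were not tested went both ways. Control and cKO means were 0.766 and 1.24 FPKM for *Cyp11a1*, 0.499 and 0.753 for *Cyp17a1*, 0.576 and 0.572 for *Insl3*, and 0.855 and 0.712 for *Tagln*. The summed level of the 6 Leydig genes was 16.5 to 37.9 FPKM in the controls and 28.6 to 46.7 FPKM in the cKO libraries. For the 4 peritubular genes it was 43.9 to 74.1 and 73.0 to 103, for the 4 macrophage genes 6.08 to 13.3 and 13.1 to 16.3, and for the 4 endothelial genes 5.00 to 12.2 and 11.2 to 14.3 FPKM. The 8 Sertoli genes summed to 282 to 403 FPKM and 321 to 391 FPKM, with a median log2 fold change of 0.15 and 0 of 8 at an unadjusted p under 0.05. Multiciliated cells of the ducts also use axonemal genes. Of their 5 markers only *Foxj1* was tested, *Mcidas* and *Gmnc* were at 0.12 FPKM or less in every library, and the summed level was 2.42 to 3.90 FPKM in the controls and 2.52 to 4.00 FPKM in the cKO libraries. The part of these shifts in the levels of the axonemal genes was not tested.

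Other genes of the same machinery were counted beside these. Of a list of 23 genes of the nexin-dynein regulatory complex and of spoke-associated proteins, 22 were in the table and 21 were tested. Of these, 20 had a log2 fold change below 0, 17 were lower and 0 higher at an unadjusted p under 0.05 (5.00% and 5.89% of all genes tested), 11 were lower without overlap between the groups (2.59% of all genes), and 0 reached an adjusted p under 0.05. Their median was -0.53. *Wdr66*, a spoke-associated protein, was at 3.93, 5.85, 7.08 and 4.97 FPKM in the controls and 3.38, 2.90, 2.07 and 2.48 FPKM in the cKO libraries (log2 fold change -0.98, SE 0.20, adjusted p = 0.150). *Lrrc23* of the radial spoke head and the spoke chaperone *Dnajb13* had log2 fold changes of -0.86 and -0.84 (SE 0.18 and 0.15, adjusted p = 0.149 and 0.127). These 3 were named after their values were seen. The most abundant gene of the list, *Ropn1l* at 153 to 393 FPKM in the controls, overlapped between the groups (log2 fold change -0.41, SE 0.28, adjusted p = 0.654).

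**Figure D5:**
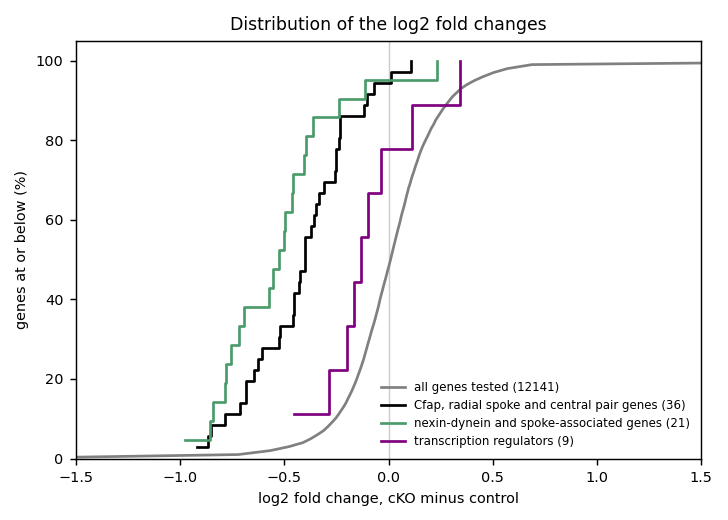
Share of genes (y axis, percent) at or below each log2 fold change (x axis, cKO minus control) for all 12141 genes tested, the 36 axonemal genes, 21 nexin-dynein and spoke-associated genes and 9 transcription regulators. The curves of both axonemal lists lie to the left of that of all genes over nearly all of their range.

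Transcription regulators known for these genes were counted in the same way. Of 12 listed, 9 were tested, 7 had a log2 fold change below 0, 0 had an unadjusted p under 0.05, and the median was -0.13. *Rfx2* was at 22.2, 26.2, 30.2 and 18.1 FPKM in the controls and 26.1, 19.7, 21.2 and 16.7 FPKM in the cKO libraries (log2 fold change -0.20, SE 0.18, adjusted p = 0.748). *Mybl1* was at 14.7 to 18.8 FPKM and 11.3 to 17.5 FPKM (log2 fold change -0.29, SE 0.14, adjusted p = 0.514). Among the tested axonemal genes with a RefSeq promoter window, the 11 with the RFX half-site had a median log2 fold change of -0.40 and the 17 without it one of -0.43. Genes below the filter are not in these medians. In the fit with the lower filter, the genes left out in this way that held the half-site ran from -1.47 (*Cfap58*) to 0.43 (*Spag6*). The genes left out that had a window but no half-site ran from -1.10 (*Rsph14*) to 0.08 (*Cfap77*). The promoters printed above include genes on both sides, such as *Cfap44* at -0.69 and *Cfap20* at 0.01.

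The 46 genes lie on 17 chromosomes, none of them X or Y. The tested ones were somewhat short, with a median gene length of 3567 bases against 4268 over all genes tested, and the longest was *Hydin* with 18037 bases in 88 exon blocks. The direction was alike in genes of higher and lower level: the median log2 fold change was -0.37 in the 18 tested genes of higher mean FPKM and -0.45 in the 18 of lower mean FPKM. For 10 of the 46 genes over 5% of the exonic bases overlap another gene in GENCODE vM21. Among the named genes these include *Cfap298*, *Rsph10b* (10.5%, with *Gm42421* on the same strand), *Spag17* (9.66%, with *Wdr3* on the other strand), *Rsph3a*, *Spef1*, *Spag6* and *Cfap52* (8.36%, with *9130017K11Rik* on the other strand). For *Rsph10b* the shared bases lie on 1 strand, so that strand would not tell the fragments apart, and for the others the fragments of both genes cannot be told apart if strand was not used.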

How the data were processed

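RNA-seq libraries of 4 control and 4 cKO testes, grouped by GEO's labels, were analysed. The sequencing company made, and the authors deposited, FPKM values for 54532 genes, in 1 table and in a file per library. All 8 files were equal to the table. Aligner, counter and strand are not given in the sources used here. The submitters' processing notes name GRCm38, and 98.3% of table genes found in GENCODE vM21 had equal coordinates. FPKM multiplied by gene length gave whole fragments for 100% of values up to 1000 fragments (tolerance 0.02). The values include a scaling by the authors, whose library sizes lay between 0.938 and 1.05 of the summed fragments. One fragment on 1 kilobase was worth at most 0.0763 FPKM.

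Limma 3.58.1 (R 4.3.3; lmFit, eBayes with trend) was run on log2(FPKM + 0.1), 4 against 4, over protein-coding genes whose mean exceeded 1 FPKM in each group, with Benjamini-Hochberg adjustment over all of them. Log2 fold changes on this scale understate changes of low genes. In simulated fragments for these 12141 genes, of 200 changed by 0.7 on the log2 scale 163 were recovered at a dispersion of 0.02 (7 false calls) and 42 at 0.05 (0 false calls), and of 200 changed by 1.5 all 200 at both (15 and 8 false calls). Ratios of paralogs were tested by exact permutation. Plots used matplotlib 3.10.9.

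The genes, lists and tests were chosen with earlier results of these data known. Named were the 7 genes listed one by one, all *Rsph*, the 6 *Cfap* highest in FPKM, the 6 of smallest p, the 3 largest rises and falls, and genes of mean under 0.1 FPKM by name only. Others were chosen after their values were seen. The least different replicates differed by 4.61 times sampling noise (chi-square per gene), so each library counted once. Alternatives were other pseudocounts and filters, all biotypes, centring, TPM, array weights, voom, a replicate block, eBayes with no trend, and each library left out in turn. Single-cell, proteomic and imaging data of the study were not analysed here.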

Additional observations from a re-analysis of the deposited data

Results flagged for a closer look

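In 98 groups of 4 libraries (the 46 genes and 3 paralog ratios in each group) 6 held a library far from the other 3, where chance gives about 1 in 20, or 4.9. In cKO 1, *Cfap300* reached 40.7 FPKM, and the remaining cKO libraries lay within 28.5 to 29.4, *Cfap298* stood at 22.7 against 14.5 to 15.5, *Cfap54* at 3.99 against 2.55 to 2.77, and *Spag16* at 3.69 against 2.48 to 2.62. These 4 values of cKO 1 lie toward the controls. *Rsph10b* in cKO 4 was at 3.72 FPKM against 4.11 to 4.17, and *Cfap70* in control 3 at 19.6 FPKM against 15.4 to 16.0.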

How the results depend on the processing

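The cause was not tested where a result moved, unless given. With array weights 2 of the 36 genes were called, 16 were at an adjusted p under 0.05 and 29 were lower at an unadjusted p under 0.05 (9.93% of all genes), and single genes reached an adjusted p under 0.05 in no other alternative run. The genes lower without overlap numbered 6 with TPM and 10 to 20 with each library left out in turn, which makes separation easier. The count at an unadjusted p stayed within 13 to 24 over the fits without 1 library (2.67% to 7.81% of all genes) and was 21 with the replicate block (6.81% of all genes), under which no call changed. The numbers were not taken as pairs, since the labels do not say which mice were littermates. Deviations of same-numbered libraries correlated at 0.288, 0.131, 0.0757 and 0.406, and those of other pairs between -0.474 and 0.162. Not every library correlated best with its own number, and these values do not settle whether the numbers mark pairs. The ratio of *Rsph6a* to *Rsph4a* changed sign to -0.24 with a pseudocount of 1 and ranged from -0.13 to 0.32 with libraries left out, that of *Rsph3a* to *Rsph3b* from -0.11 to 0.11, and that of *Spag6l* to *Spag6* from -0.79 to -0.51. Without control 2 the exact test gave p = 0.0286 for *Spag6l* to *Spag6*, not adjusted over the ratios. This is the smallest p that the test can give with 1 library left out. *Cfap20* was at -0.059 with array weights and *Rsph3b* at 0.0094 with TPM. With libraries left out, log2 fold changes ranged from -0.26 to 0.0069 for *Rsph1*, -0.042 to 0.046 for *Cfap20*, -0.32 to 0.033 for *Rsph3a*, -0.27 to 0.057 for *Rsph3b*, -0.070 to 0.25 for *Cfap77* and -0.34 to 0.0097 for *Cfap73*. Of 836 values of single genes under alternatives 805 kept direction and side of the threshold. In the simulation 163 of 200 differences of 0.7 were recovered at a dispersion of 0.02 and 42 at 0.05. The dispersion of these libraries was not measured, and a difference of 0.4 was not simulated.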
